A study of Homo sapiens with 3 samples.

Results

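The comparison described here sets HCT116 cells treated with siRNA #7 against HCT116 cells treated with control siRNA, on 1 whole-genome expression array each, which are 2 of the 3 arrays of the series. A probe was kept when its signal was well above background on both arrays, after removal of control spots and of spots that the scanner software marked as outliers, and 18710 of 50599 gene probes were kept. The study asked what happens to gene expression when HOXA5 short RNA, a long non-coding RNA read from the HOXA6-HOXA5 locus, is silenced. The third array was for siRNA #8, and the file headers place all 3 on 1 slide. Each array was hybridised with labelled RNA of 1 culture treated for 48 h, with 400 ng of total RNA as input. HCT116 cells are a line established from a colorectal carcinoma, and they were transfected transiently, at 10 nM siRNA by the methods of the study. The labels call the control "control siRNA" without a product name, and the methods name a pair of non-targeting products without saying which was used for the arrays. With 1 array per condition there is no replicate of a treated culture, so no p-value is given, and every error printed covers spotting and scanning only. Ratios are on the log2 scale, siRNA #7 over control siRNA, after each array was divided by its own 75th percentile intensity. The siRNA #8 array is given beside them on the same scale. Both siRNAs are compared with the same control array, so a spot that is off on that array moves both ratios together.

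Small interfering RNAs are short double-stranded RNAs. One strand is loaded into an Argonaute protein, which it guides to RNAs with a matching sequence, and a full match leads to cutting of the target. The 5' end of the loaded strand, called the seed, also pairs with partly matched sites in other transcripts. HOX genes encode homeobox transcription factors that set position along the body axis, and their clusters also give rise to many non-coding RNAs.

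Both siRNAs are printed because their targets overlap within HOXA5 short RNA. Capitals mark the run of 17 bases that they share, in a length of 21 bases.
siRNA #7: gagaAACUGAAAGACAACAUA
siRNA #8: AACUGAAAGACAACAUAggcg
The start of siRNA #8 lies 4 bases downstream of that of siRNA #7. The strands complementary to the listed sequences follow, with bases 2 to 8 in capitals, which is the seed if that strand is the loaded one.
complement of siRNA #7: uAUGUUGUcuuucaguuucuc
complement of siRNA #8: cGCCUAUGuugucuuucaguu
Although the targets share most of their bases, the shift of 4 bases gives the complements different seeds. Among 2545 mature human miRNAs in RefSeq, 0 carry the siRNA #7 seed and 0 carry the siRNA #8 seed at the same position. The sources used here do not state which strand is loaded.

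The targeted locus was looked at first. The single HOXA5 probe read 84.9 in the control, 52.6 after siRNA #7 and 58.5 after siRNA #8, in units of processed intensity. It was brightest in the control, and after scaling the log2 ratio was -0.36 ± 0.25 with siRNA #7 and -0.23 ± 0.26 with siRNA #8. The probe is assigned to the HOXA5 mRNA accession, and whether it also reads HOXA5 short RNA was not tested, so it is no direct check of the knockdown. HOXA6, the other gene of the locus, gave 15.9, 17.3 and 21.5 on the same 3 arrays, a ratio of 0.45 ± 0.40. Of 39 HOX genes, 23 were measured, and their median ratio of 0.10 lay close to the median of 0.02 over all 12257 genes measured. Across those 12257 genes, 7.52% were higher by 1.5-fold or more and 6.54% lower by as much, and at 2-fold the shares were 1.98% and 1.54%. Past 1.5-fold stood 4 of the 23 HOX genes, 3 higher and 1 lower. HOXC4 had the highest ratio at 1.05 ± 0.40, followed by HOXB5 at 0.95 ± 0.16, while HOXB8 at -0.64 ± 0.32 (local value -0.50) and HOXA11 at -0.58 ± 0.40 were the lowest. HOXB5 read 161 in the control, 247 after siRNA #7 and 284 after siRNA #8, higher with both siRNAs. The other HOX genes named in the study were HOXA13 at -0.53 ± 0.32, HOXB7 at -0.49 ± 0.40, HOXB4 at -0.11 ± 0.16 and HOXB9 at 0.16 ± 0.16. HOXD12 was not well above background.

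The siRNA #7 array was dimmer than the control array, with a 75th percentile intensity of 42.1 against 52.8, and fewer of its probes were well above background, 19069 against 20473. No spot was saturated. Probes of the E1A spike-in mix, added in equal amounts during labelling, did not share this difference, and scaling on them lowers the median ratio of all kept probes by 0.29. All ratios here are therefore relative to the bulk of the array. The ratio also varied with position: 14.8% of kept 1-spot probes lay in the first 25 of 164 columns, but 41.5% of those at least 2-fold higher and 24.5% of those at least 2-fold lower did. The spots around the 2-fold higher probes had a median log2 ratio of 0.16, against 0.02 around all kept probes and -0.12 around the 2-fold lower ones. The part of position in single ratios was not tested. Where removing the median of the surrounding spots took a named ratio from past 1.5-fold to below it, or moved one past 1.5-fold by more than 1.5 times, the value without it is given as the local value. Of 10 markers of colon epithelium, 7 were measured, among them EPCAM, CDH1, KRT8 and KRT18, and VIL1, LGALS4 and TSPAN8 were not well above background. None of the markers of leukocytes, endothelium or hepatocytes was measured on both arrays, 1 of 6 fibroblast markers was (COL1A1) and 2 of 4 neuronal markers were (RBFOX3 and GAD1).

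**Figure D1:**
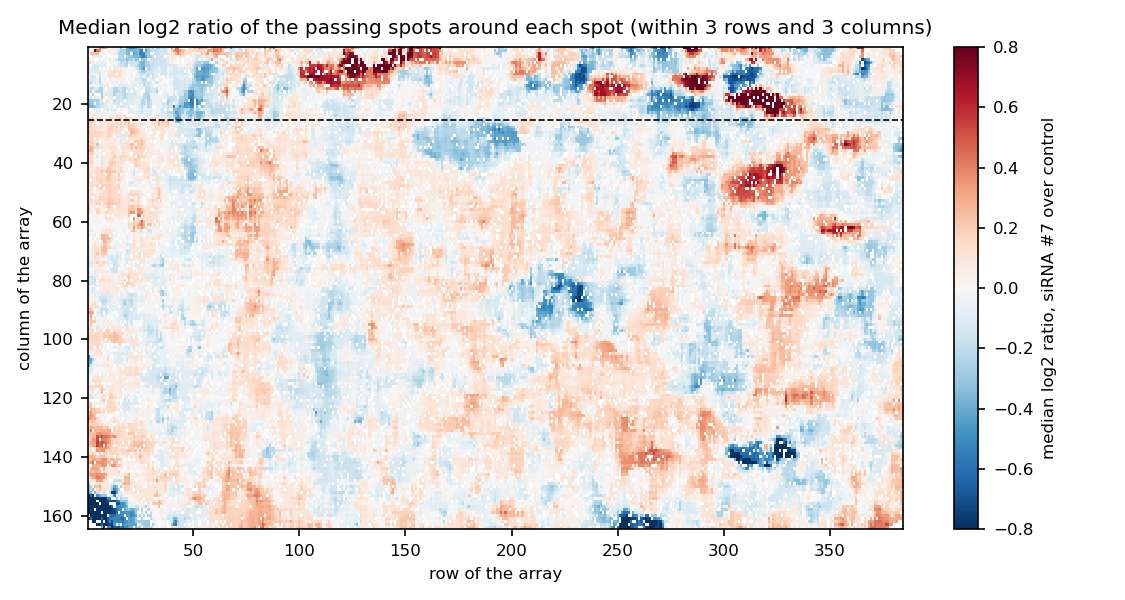
Each point of the array is coloured by the median log2 ratio, siRNA #7 over control siRNA, of the kept spots within 3 rows and 3 columns of it (vertical axis, column; horizontal axis, row; the dashed line closes the first 25 columns). Patches above 0 (red) and below 0 (blue) are densest in the first 25 columns, and smaller ones lie elsewhere.

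Over all kept probes the spread of the ratios was modest, with a standard deviation of 0.47 on the log2 scale, and quartiles at -0.22 and 0.26. Past 2-fold, 421 probes were higher with siRNA #7 (2.25%) and 342 were lower (1.83%), so that 55.2% of the probes past 2-fold were higher. Past 1.5-fold the counts were 1565 (8.36%) and 1334 (7.13%). This share depends on the scale: it was 45.1% when arrays were set to their medians, 20.3% with the E1A probes and 42.9% after normexp background correction. More of these probes were dim: with the kept probes split by signal into 3 equal parts, the dimmest part held 210 higher and 150 lower ones, and the brightest part 86 and 71. A second probe of the same gene seldom moved as far. Where a 2-fold higher probe had another kept probe, the others of its gene were all at least 1.5-fold higher for 38 of 129 probes (29.5%), and for 2-fold lower probes the figure was 34 of 127 (26.8%). Probes printed on 1 spot made up nearly all of them, with 417 higher (2.3%) and 339 lower (1.87%) past 2-fold, and 1544 (8.53%) and 1308 (7.22%) past 1.5-fold. Probes printed on 10 spots varied less, with a standard deviation of 0.34 and a range from -1.95 to 2.28. They were also brighter, with a median control intensity of 216 against 120 for 1-spot probes. The part of brightness in the smaller spread was not tested. Of 601 probes printed on 10 spots, 4 were higher (0.666%) and 3 lower (0.499%) by 2-fold or more.

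**Figure D2:**
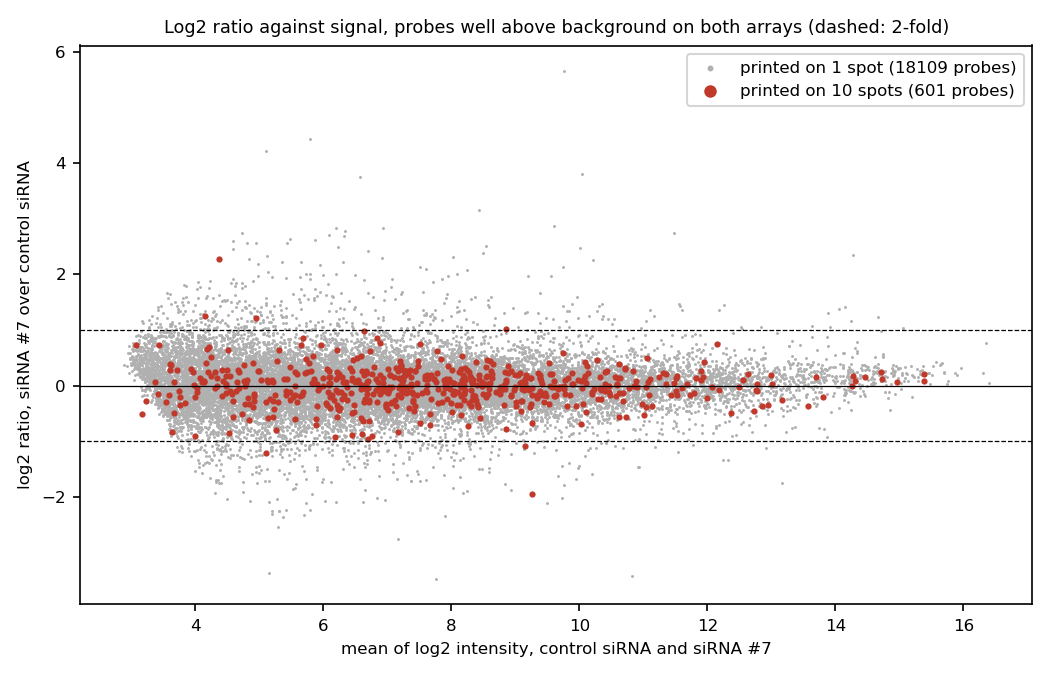
Log2 ratio of siRNA #7 over control siRNA against the mean log2 intensity of both arrays, for 18109 probes printed on 1 spot (grey) and 601 printed on 10 spots (red), with dashed lines at 2-fold. The grey cloud is widest at low signal, and ratios above 3 or below -3 belong to probes printed on 1 spot.

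Single spots held the largest ratios. The highest, named after its value was seen, was the 1 probe of LBX1, a homeobox gene. It read 137 in the control, 5505 after siRNA #7 and 6790 after siRNA #8, a ratio of 5.66, and the spots around it had a median ratio of 1.18. In other genes a second kept probe stayed near 0, as in PLEKHA1, where one probe gave 4.44 and the other -0.01. At the low end, the paired probes of PRR36 gave -3.47 and -0.09, those of NFKBIL1 -3.41 and 0.15, and those of INTS1 -3.36 and 0.12. Over 2338 genes with exactly 2 kept probes, the difference between the probes had a standard deviation of 0.53. Genes read by several probes that moved together, and probes printed on 10 spots, are therefore described in most detail.

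Several probes moved together for a small set of genes. Of 2830 genes with 2 or more kept probes, 1723 (60.9%) had all probes on the same side of 0. In 48 genes (1.7%) every kept probe was higher by 1.5-fold or more, and in 42 genes (1.48%) every one was lower by as much. With scaling on the E1A probes these counts were 17 and 232, and after normexp correction 4 and 19. The 8 with the largest ratios at each end, ranked by the smaller of their probes, are described next.

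The lowest of these genes was KCTD9, which encodes a BTB domain protein and has 3 probes. Its brightest probe read 286 in the control, 54.8 after siRNA #7 and 72.6 after siRNA #8, and the second brightest read 229, 59.1 and 40.6. The 3 ratios with siRNA #7 were -2.05 ± 0.19, -1.62 ± 0.19 and -1.56 ± 0.32. KCTD9 was thus brightest in the control, and with siRNA #8 its ratios ran from -2.46 to -1.67. PLA2G12A, a secreted phospholipase A2, differed between the siRNAs: the brighter of its probes read 389, 113 and 381, and the dimmer 68.9, 16.7 and 74.4. Its ratios were -1.45 ± 0.16 and -1.72 ± 0.32 with siRNA #7 but 0.27 ± 0.17 and 0.41 ± 0.26 with siRNA #8. The siRNA #7 array alone was low for this gene. UCA1 is a long non-coding RNA known from bladder and other carcinomas, and its brighter probe read 2717, 1002 and 1818. With siRNA #7 its probes gave -1.11 ± 0.14 and -1.72 ± 0.28, and with siRNA #8 -0.28 ± 0.15 and -0.81 ± 0.21.

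The remaining 5 were lower by about the same amount. API5, an inhibitor of apoptosis, had ratios of -1.46 ± 0.19 and -1.10 ± 0.32, and its brighter probe read 166, 48.1 and 103. PIGS, a subunit of the transamidase that attaches GPI anchors to proteins, had -1.09 ± 0.14 and -1.10 ± 0.32, with 2460, 923 and 1390 on its brighter probe. ATR, the checkpoint kinase that responds to stalled replication forks, had -1.07 ± 0.16 and -1.18 ± 0.32. Its brighter probe read 301 in the control, 115 with siRNA #7 and 132 with siRNA #8, so both siRNA arrays were low. CAMK2G, the gamma subunit of calcium/calmodulin-dependent kinase II, had -1.53 ± 0.16 and -1.03 ± 0.32, and its brighter probe read 335, 92.6 and 162. CDCP1, a transmembrane glycoprotein and Src substrate, had -1.08 ± 0.04 on a probe printed on 10 spots and -0.99 ± 0.19 on another. For all 5, every probe had its highest level in the control and its lowest with siRNA #7. With siRNA #8 their ratios ran from -0.89 for 1 probe of ATR to -0.26 for the 10-spot probe of CDCP1.

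At the high end stood FXYD3, a regulator of the sodium pump, with 2 kept probes. They read 155 and 7.73 with control siRNA, 385 and 19.2 with siRNA #7, and 241 and 13.2 with siRNA #8. The ratios with siRNA #7 were 1.64 ± 0.16 and 1.64 ± 0.40, and with siRNA #8 0.94 ± 0.18 and 1.07 ± 0.41. Both siRNA arrays were above the control for FXYD3. TP53I3, a p53-induced quinone oxidoreductase, was high with siRNA #7 only: its probes read 303, 561 and 202, and 149, 306 and 124. Its ratios were 1.21 ± 0.15 and 1.37 ± 0.16 with siRNA #7, and -0.28 ± 0.18 and 0.04 ± 0.18 with siRNA #8. SYTL1, a synaptotagmin-like partner of Rab27, read 565, 1038 and 644 on its brighter probe, and its ratios were 1.20 ± 0.15 and 1.49 ± 0.40. With siRNA #8 its ratios were 0.49 ± 0.17 and 0.44 ± 0.41.

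The probes of the other 5 genes were dimmer, reading at most 62.9 on any array, and their errors were larger. PTP4A3, a phosphatase also called PRL-3, had ratios of 1.27 ± 0.33 and 1.49 ± 0.33, with 32.7, 62.9 and 26.9 on the brighter probe. FANK1, an ankyrin repeat gene of the testis, had 1.58 ± 0.33 and 1.57 ± 0.40, and its brighter probe read 22.2, 53.1 and 22.9. With siRNA #8 the brighter probes of these genes had 0.02 ± 0.41 and 0.35 ± 0.41. Their dimmer probes had 0.23 ± 0.41 for PTP4A3 and -0.50 ± 0.41 for FANK1, the latter not well above background with siRNA #8. HBA2, an alpha-globin, had 1.34 ± 0.33 and 1.45 ± 0.33, and GGTLC2, a gamma-glutamyltransferase light chain, had 1.57 ± 0.40 and 1.39 ± 0.33. Near-identical copies of both exist (HBA1 and GGTLC1), so these signals cannot be given to 1 gene. FLJ43315, a non-coding transcript, had 1.09 ± 0.40 and 1.16 ± 0.33. Its ratios with siRNA #8 were -0.96 ± 0.41, on a probe not well above background there, and -0.01 ± 0.41. Those of HBA2 with siRNA #8 were 0.72 ± 0.41 and 0.34 ± 0.41, and those of GGTLC2 0.52 ± 0.41 and 0.58 ± 0.41. With the median of the surrounding spots removed, every kept probe of the 16 genes kept its direction, with a log2 ratio of at least 0.76 in size. After normexp correction the means of FANK1 (0.56), GGTLC2 (0.46), HBA2 (0.58), PTP4A3 (0.54) and FLJ43315 (0.33) were below 1.5-fold, while the other 11 genes stayed past it.

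**Figure D3:**
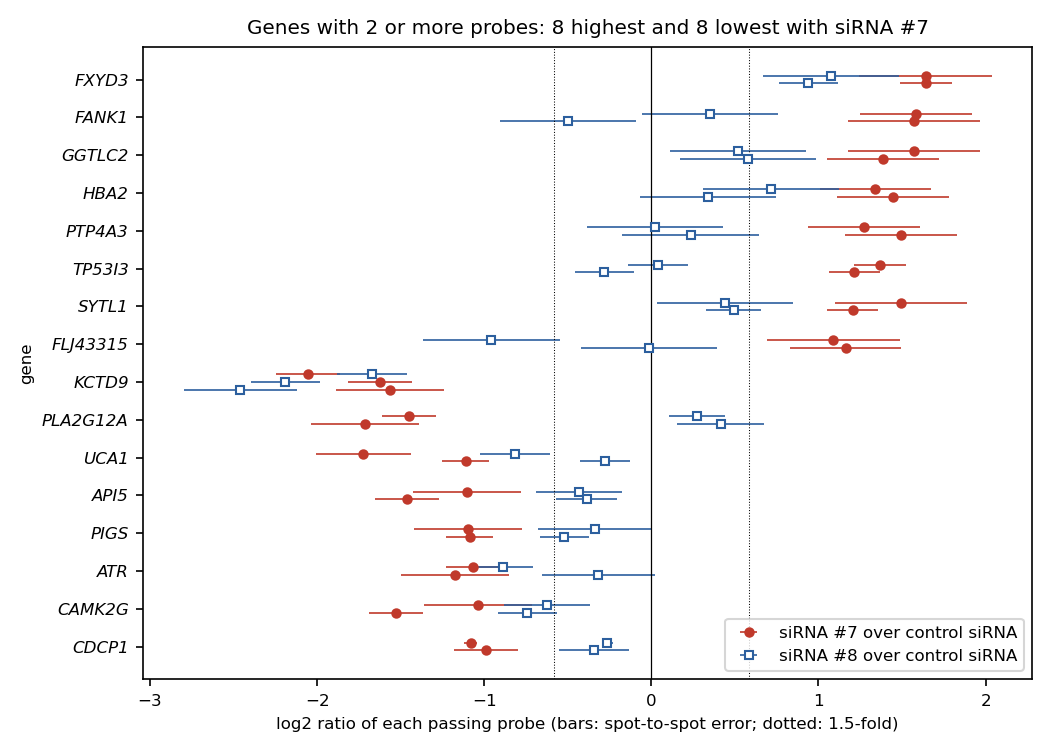
Log2 ratio over control siRNA of every kept probe of the 8 highest and 8 lowest genes with 2 or more probes, with siRNA #7 in red circles and siRNA #8 in blue squares. Bars are the spot-to-spot error and cover no difference between cultures. KCTD9 is low with both siRNAs. Every kept probe passes 1.5-fold with siRNA #7 and none with siRNA #8 for PLA2G12A, API5, PIGS, CDCP1, TP53I3, SYTL1, PTP4A3, FANK1 and GGTLC2.

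Among probes printed on 10 spots, 21 of 601 were higher (3.49%) and 26 lower (4.33%) by 1.5-fold or more. With scaling on the E1A probes these counts were 5 and 95, and after normexp correction 2 and 19. Every siRNA #7 spot lay above every control spot for 18 of those 21, and below for 24 of those 26, while over all 601 probes this held for 10.5% and 13.1%. Spots of 1 array share the same labelled RNA, so they show that a level was read precisely, not that it would recur in another culture. PMP22, a membrane protein of peripheral myelin also made by epithelial cells, was the lowest. Its control spots had levels from 4.58 to 4.73 (log2 over the 75th percentile, median 4.72) and its siRNA #7 spots from 2.64 to 2.81 (median 2.71). The ratio was -1.95 ± 0.03 with siRNA #7 and -0.45 ± 0.04 with siRNA #8, and intensities were 1354, 280 and 805 on the 3 arrays. PRR15L, a proline-rich protein gene at the other end, read 10.5, 40.7 and 88.7. Its control spots ran from -2.92 to -1.92 and its siRNA #7 spots from -0.85 to 0.18, without overlap. The ratio was 2.28 ± 0.16, and with siRNA #8 it was larger, at 3.38 ± 0.13. After normexp correction its ratio with siRNA #7 was 0.70.

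RSPH1, a radial spoke protein of cilia, and SELENOP, which carries selenium in plasma, were high with both siRNAs to a like degree. For RSPH1 the ratios were 1.25 ± 0.10 with siRNA #7 and 1.15 ± 0.08 with siRNA #8, from intensities of 12.9, 24.5 and 23.2. For SELENOP they were 1.22 ± 0.07 and 1.21 ± 0.06, from 22.7, 42.1 and 42.4, and a second SELENOP probe gave 1.06 ± 0.40 with siRNA #7. JDP2, a repressor that pairs with Jun proteins, went apart between the siRNAs: it read 364 in the control, 591 with siRNA #7 and 232 with siRNA #8. Its ratios were 1.03 ± 0.05 and -0.35 ± 0.04, and its control spots (2.63 to 2.94) did not overlap the siRNA #7 spots (3.56 to 3.94). HLA-DRB1, a class II histocompatibility chain with close relatives in the genome, had 0.99 ± 0.06 with siRNA #7 and 0.70 ± 0.07 with siRNA #8. After normexp correction RSPH1 (0.39), SELENOP (0.45) and HLA-DRB1 (0.58) were below 1.5-fold with siRNA #7.

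On the low side after PMP22 came TMEM267, at -1.21 ± 0.11 with siRNA #7 and -0.14 ± 0.10 with siRNA #8, from 58.5, 20.1 and 43.0. CMPK1, the kinase that phosphorylates UMP and CMP, had -0.95 ± 0.06 and -0.34 ± 0.05, and its second probe had -0.53 ± 0.25 with siRNA #7. PSME3IP1, named for binding the proteasome activator PSME3, was lower with siRNA #8 than with siRNA #7, at -1.24 ± 0.06 against -0.92 ± 0.07. The intensities of this 10-spot probe were 112, 47.0 and 38.3. A second kept probe of PSME3IP1 had -0.47 ± 0.19 with siRNA #7, short of 1.5-fold, and -0.74 ± 0.21 with siRNA #8. After normexp correction TMEM267 (-0.44) and PSME3IP1 (-0.56) were below 1.5-fold with siRNA #7. For CDCP1 the control spots ran from 4.04 to 4.22 and the siRNA #7 spots from 2.96 to 3.21. A pair of further 10-spot probes was picked after their values were seen. TGFB1, the growth factor, had -0.89 ± 0.06, and MSH6, a mismatch repair gene, had -0.69 ± 0.04 beside -0.64 ± 0.05 with siRNA #8.

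**Figure D4:**
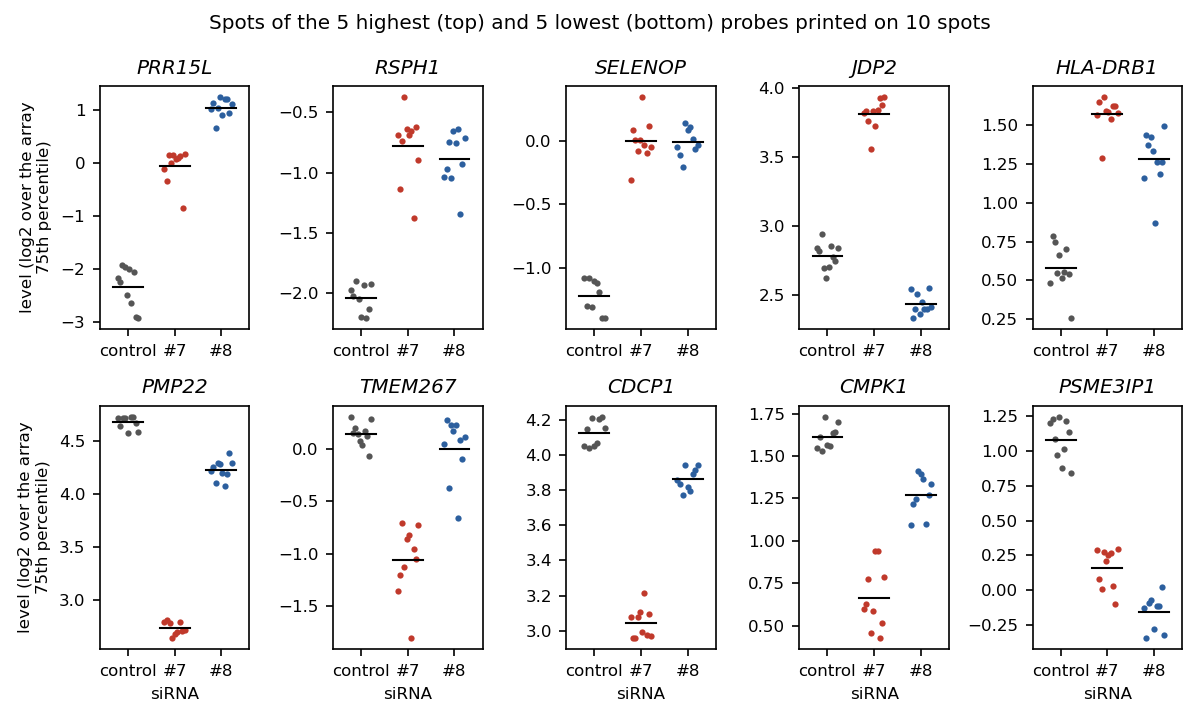
Levels of the single spots (points) and their means (lines) of the 5 highest and 5 lowest probes printed on 10 spots, on the control, siRNA #7 and siRNA #8 arrays, as log2 over the 75th percentile of each array. Each panel has its own vertical scale. In every panel the siRNA #7 spots lie apart from the control spots, and the siRNA #8 spots are higher than those of siRNA #7 for PRR15L and below the control for JDP2.

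Groups of genes were then read together, as the median of their members beside the median of 0.02 over all genes, with each gene given the mean of its kept probes. Counts past 1.5-fold stand beside shares over all genes of 7.52% higher and 6.54% lower, and at 2-fold of 1.98% and 1.54%. In a short list a small count can lie near these shares. Where a list crossed to the other side of the all-gene median under any of 10 alternative settings, this is said beside it. The lowest of the 29 list medians was that of cholesterol synthesis, the pathway that makes sterols from acetyl-CoA under control of SREBP2. All 24 of its genes were measured, the median was -0.34, and 20 lay at or below the all-gene median. At 1.5-fold, 7 were lower and 0 were higher. MVD, which makes isopentenyl diphosphate, was lowest, reading 336 in the control, 81.7 with siRNA #7 and 232 with siRNA #8. Its ratio was -1.71 ± 0.19, and -1.16 with the median of the surrounding spots removed. INSIG1, the sterol-regulated anchor of SREBP, read 820, 365 and 474, a ratio of -0.84 ± 0.15. HMGCS1, FDFT1 and IDI1, enzymes along the route, had -0.70 ± 0.16, -0.79 ± 0.14 and -0.68 ± 0.16, and STARD4, a sterol carrier, had -0.83 ± 0.32. The local values of FDFT1 and IDI1 were -0.52 and -0.55.

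A pair of later enzymes of the pathway, MSMO1 and HSD17B7, passed 1.5-fold on 10-spot probes. MSMO1 had -0.59 ± 0.07 with siRNA #7 and -0.96 ± 0.12 with siRNA #8. HSD17B7 had -0.63 ± 0.05, and its other probes gave -0.33 ± 0.25 and -0.75 ± 0.32, while with siRNA #8 the 10-spot probe gave 0.19 ± 0.02. SREBF2, which encodes SREBP2, was at -0.03 ± 0.15. TM7SF2, a sterol reductase, was highest at 0.54 ± 0.04 on 10 spots, above CYP51A1 at 0.20 ± 0.15. Less the all-gene median, the list median lay between -0.51 and -0.32 under the main and the 10 alternative settings, and with siRNA #8 the list median was -0.19.

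Heat shock proteins and their cochaperones, which fold other proteins, came next with a median of -0.32. Of 17 measured, 16 lay at or below the all-gene median, and 2 were at least 2-fold lower. DNAJA1 read 1571 in the control, 458 with siRNA #7 and 1276 with siRNA #8, a ratio of -1.45 ± 0.14 that became -0.48 with the median of the surrounding spots removed. HSPA9, the mitochondrial HSP70, read 1062, 369 and 745, a ratio of -1.20 ± 0.15 that stayed at -1.12. Genes with several probes moved less: HSPH1 had -0.42, HSP90AA1 had -0.39 over 3 probes and CHORDC1 had -0.32 over 3 probes. At the top were HSPD1 at 0.10 ± 0.14 and HSPA8 at 0.00 ± 0.14.

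Genes of glycolysis and the hypoxia response had a median of -0.28 over 21 genes. Of these, 12 lay at or below the all-gene median and 9 above it. By 1.5-fold or more, 4 were lower and 1 was higher. ANKRD37, a hypoxia-inducible gene, had -1.08 ± 0.19, reading 164, 61.9 and 85.1. HK2, a hexokinase, read 1134, 540 and 546, a ratio of -0.74 ± 0.15, low with both siRNAs. PFKL and SLC2A1, which encode a phosphofructokinase and the glucose transporter GLUT1, were highest at 0.59 ± 0.16 (local value 0.50) and 0.50 ± 0.15. PGK1, on 10 spots, had -0.34 ± 0.03, and GAPDH, also on 10 spots and often used as a reference gene, had 0.12 ± 0.03. With siRNA #8 the list median was -0.28.

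**Figure D5:**
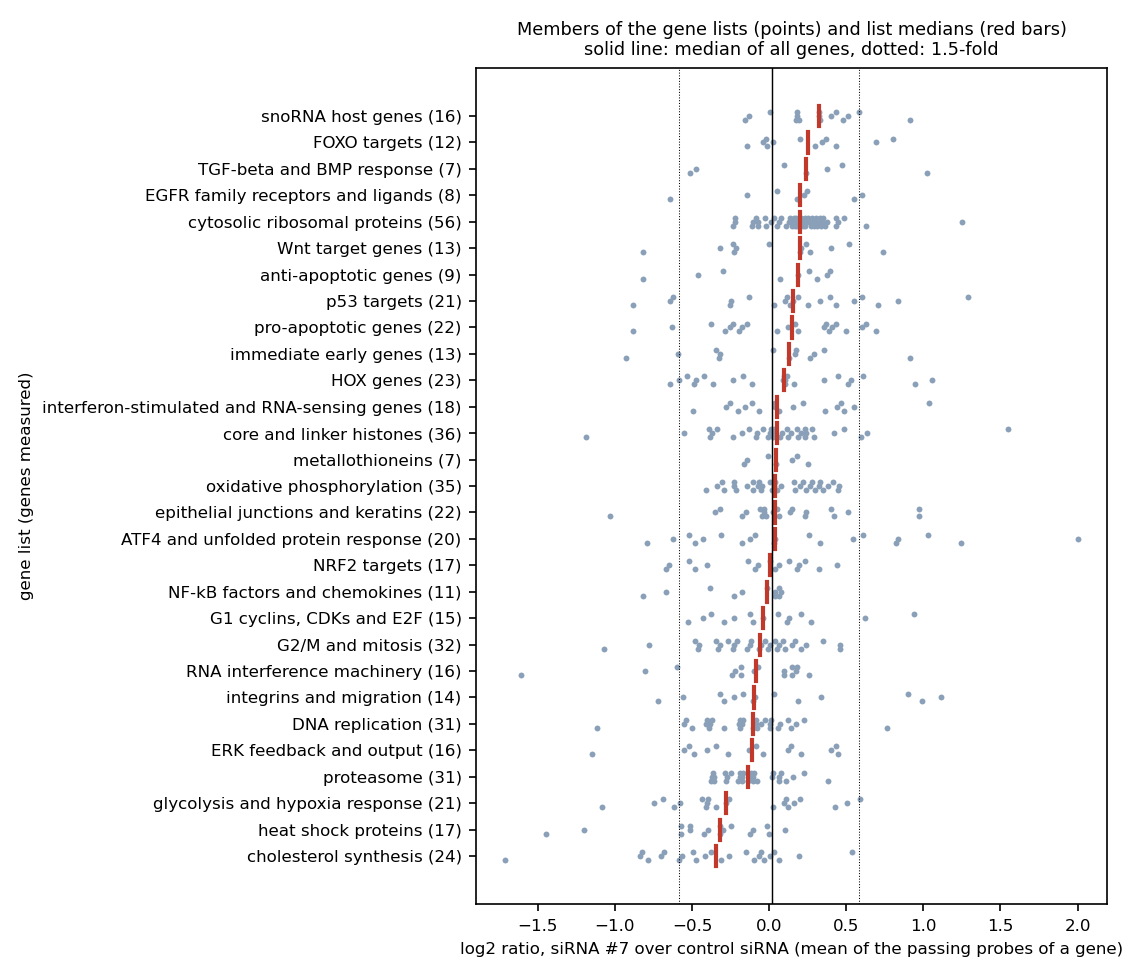
Log2 ratio of siRNA #7 over control siRNA of the members of 29 gene lists (points, mean of the kept probes of a gene) with the list medians as red bars, ordered by median, and the number of genes measured in parentheses. The solid line is the median of all genes and the dotted lines mark 1.5-fold. Medians run from -0.34 for cholesterol synthesis to 0.32 for snoRNA host genes, and single members spread well beyond them.

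The medians of snoRNA host genes and of cytosolic ribosomal protein genes lay on the other side. The 16 snoRNA host genes, whose introns hold small nucleolar RNAs, had the highest median, 0.32, with 13 above the all-gene median but 1 at least 1.5-fold higher. EPB41L4A-AS1 was highest at 0.91 ± 0.14, reading 3084, 4636 and 3612, then EIF4A2 at 0.58 ± 0.14. SNHG7 at -0.15 and TAF1D at -0.13 ± 0.16 were the lowest. Of 56 cytosolic ribosomal protein genes, 45 lay above the all-gene median, and the list median was 0.20. Less the all-gene median this was 0.03 after normexp correction and 0.05 after quantile normalization, and the list has 2 genes at least 1.5-fold higher. RPL23 was highest at 1.25, but its probes gave 0.15 and 2.35, and RPS13 followed at 0.63 with probes at 0.22 and 1.03. The local values of these genes were 0.43 and 0.37. RPS28 at -0.23 and RPS20 at -0.22 were lowest, and pseudogene copies of many of these genes may share their probes. Proteasome genes had a median of -0.14, with 22 of 31 at or below the all-gene median and 0 past 1.5-fold, from PSMA1 at -0.38 and PSMD7 at -0.37 ± 0.03 to PSMC3 at 0.23 and PSMB2 at 0.38. Oxidative phosphorylation genes had a median of 0.04, which crossed the all-gene median under 2 of the 10 settings, and 0 of 35 genes past 1.5-fold. NDUFA1 at -0.41 and NDUFB3 at -0.34 were lowest there, and ATP5MC1 and COX5B, both at 0.45, were highest.

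Genes of the ATF4 and unfolded protein response, which adjust amino acid supply and protein folding under stress, were spread widely around a median of 0.04, which crossed the all-gene median under 3 of the 10 alternative settings. Of 20 measured, 6 were higher by 1.5-fold or more, 3 of them by 2-fold or more, and 2 were lower. CHAC1, a glutathione-degrading ATF4 target, read 152 in the control, 488 with siRNA #7 and 112 with siRNA #8, with ratios of 2.01 ± 0.16 for siRNA #7 and -0.14 for siRNA #8. A second CHAC1 probe was not well above background with control siRNA and was at least 5.24-fold higher with siRNA #7, counted from its own dim signal there or from the lowest signal well above background on the control array, whichever was higher. PHGDH, the first enzyme of serine synthesis, read 965, 1824 and 872, a ratio of 1.24 ± 0.15. ASNS, asparagine synthetase, read 4653, 7565 and 2418, with 1.03 ± 0.14. In these genes the siRNA #7 array was high, while with siRNA #8 the ratio of PHGDH was 0.16 and that of ASNS -0.64. PSAT1, a later enzyme of serine synthesis, went the other way, with -0.80 ± 0.14 and -0.79 ± 0.32 on its probes. HSPA5, the endoplasmic reticulum chaperone BiP, was low at -0.63 ± 0.15, and DDIT3, which encodes CHOP, was at 0.03 ± 0.25.

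Targets of p53 also went both ways, with a median of 0.16 over 21 genes. Of these, 4 were higher and 3 lower by 1.5-fold or more, beside 7.52% and 6.54% of all genes. After TP53I3 the highest was SESN2, a stress-induced regulator of mTORC1, at 0.83 ± 0.22, and CDKN1A, the CDK inhibitor p21, had 0.71 ± 0.16 on intensities of 144, 188 and 119. FAS, a death receptor, was lowest, with -0.60 ± 0.06 on 10 spots and -1.16 ± 0.32 (local value -0.70) on another probe. RRM2B, a ribonucleotide reductase subunit, had -0.65, and MDM2, the ubiquitin ligase that removes p53, had -0.62 over 3 probes between -0.70 and -0.55. The lists of pro- and anti-apoptotic genes had medians of 0.15 and 0.19, and each crossed the all-gene median under 1 of the 10 settings. Of 22 pro-apoptotic genes, 3 were higher and 2 lower by 1.5-fold or more, beside the same shares of all genes. HRK at 0.69 ± 0.16 and BAK1 at 0.63 ± 0.16 were at the top (local values of 0.57 for both) and FAS at the bottom. Of 9 anti-apoptotic genes 1 passed 1.5-fold, BIRC3 at -0.82 ± 0.32, followed by BIRC5 at -0.46 ± 0.07, and MCL1 at 0.40 ± 0.16 and BCL2A1 at 0.37 ± 0.16 were highest.

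Cell cycle genes moved little as groups. The 31 DNA replication genes had a median of -0.11, with 24 at or below the all-gene median, 1 gene higher and 1 lower by 1.5-fold or more, and their median with siRNA #8 was -0.61. CDC6, an origin licensing factor, was lowest at -1.12 ± 0.40 on a dim probe, then GINS2 at -0.55 ± 0.04 on 10 spots, reading 2141, 1164 and 824. GINS3 at 0.77 ± 0.15 and ORC6 at 0.23 ± 0.04 were highest, and for GINS3 the intensities of 737, 1001 and 292 put the siRNAs on opposite sides of the control. The 32 genes of G2/M and mitosis had a median of -0.06 with siRNA #7 and -0.58 with siRNA #8, and 2 were at least 1.5-fold lower, TTK (-1.07 ± 0.19, local value -0.70), a spindle checkpoint kinase, and PRC1 (-0.78 ± 0.14), which bundles spindle microtubules. KIF2C and NEK2, both at 0.46, were highest. Among 15 G1 genes, cyclin E2 (CCNE2) had 0.99 ± 0.22 and 0.89 ± 0.40 on its probes and E2F1 had 0.62 ± 0.03 on 10 spots, from 197, 242 and 152. CCNE1 and RBL1 were lowest at -0.53 ± 0.14 and -0.43 ± 0.32. Core and linker histones had a median of 0.05 with siRNA #7 and -0.54 with siRNA #8, crossed the all-gene median under 2 of the 10 settings, and ran from H2AC11 at -1.19 and H2BC9 at -0.55 to H1-10 at 0.63 and H2BC14 at 1.55. The H2AC11 ratio became 0.04 with the median of the surrounding spots removed.

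The study followed epidermal growth factor signalling, so its genes are given next. EGF itself was not well above background. EGFR, its receptor, read 35.1 in the control, 40.9 after siRNA #7 and 33.2 after siRNA #8 on its kept probe, a ratio of 0.55 ± 0.33 with a local value of 0.31. Another EGFR probe read 10.6 in the control, 6.02 after siRNA #7 and 12.6 after siRNA #8, and was not well above background after siRNA #7. In intensity it was lowest where the kept probe was highest. The spots around it had a median ratio of -0.96, however. With that median removed its ratio of -0.49 became 0.47, on the same side of 0 as the kept probe. The third EGFR probe was too dim to be called above background on the 3 arrays, reading 4.75, 1.72 and 4.60. Its ratio of -1.14 became -1.10 with the surrounding median removed. The EGFR probes that were not kept thus lay on opposite sides of 0 after this step. The 8 measured receptors and ligands of the family had a median of 0.20, with 1 higher and 1 lower by 1.5-fold or more. NRG1 was highest at 0.60, with EGFR next, and HBEGF, a ligand, was lowest at -0.64 ± 0.32, followed by ERBB3 at -0.14. ERBB2, on 10 spots, had 0.24 ± 0.03. Of 16 genes that report or restrain ERK activity, SPRED1, a Ras pathway inhibitor, was at least 2-fold lower, with -1.15 ± 0.32, from 82.1, 29.5 and 64.8. IER3 had -0.55, DUSP4 had 0.43 ± 0.15 and FOSL1 had 0.45 ± 0.16. The immediate early genes, switched on within minutes by growth factors, had a median of 0.13, from EGR1 at -0.93 ± 0.14 and JUN at -0.59 ± 0.19 (local value -0.25) to JUND at 0.36 ± 0.16 and FOSB at 0.91 ± 0.33. EGR1 read 1220, 511 and 467, low with both siRNAs. The ERK list lay above the all-gene median under 1 of 10 alternative settings and the immediate early list below it under 1 of 10.

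Genes that handle or sense short RNAs were looked at because every array came from cells given one. Of 16 measured genes of the RNA interference machinery, 3 were at least 1.5-fold lower and 0 were higher, with a median of -0.09. These counts leave out a probe of AGO4, an Argonaute gene, that was well above background with siRNA #7 only. That probe went the other way and was at least 2-fold higher with siRNA #7. DICER1, the nuclease that makes miRNAs and siRNAs, read 461 in the control, 120 with siRNA #7 and 205 with siRNA #8. Its ratio was -1.61 ± 0.16, and -1.09 with the median of the surrounding spots removed. TNRC6A, a partner of Argonaute proteins, had -0.80 ± 0.16, and the pair of AGO1 probes gave -1.10 and -0.09, with a mean of -0.60 and a local value of -0.44. AGO2, on 10 spots, had 0.26 ± 0.03, and MOV10, a helicase, had 0.18 ± 0.16. Of 18 measured genes in the list of interferon-stimulated and RNA-sensing genes, 1 was at least 1.5-fold higher, OASL at 1.04 ± 0.25. IFIT1 had 0.55 ± 0.16. IFIT2 at -0.50 ± 0.40 and HERC5 at -0.28 ± 0.06 were lowest, and the median of 0.05 crossed the all-gene median under 1 of the 10 settings. IFITM1, an interferon-stimulated gene outside the list, was named after its value was seen. Its 2 kept probes gave 0.78 and 1.13, and their mean with siRNA #8 was 1.15.

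Targets of FOXO factors had a median of 0.25 over 12 genes, with TRIB1 (0.80 ± 0.14) and BCL6 (0.69 ± 0.16, local value 0.49) highest and ERBB3 and CDKN1B (-0.04) lowest. Wnt targets had a median of 0.20 over 13 genes, which lay below the all-gene median under 2 of the 10 settings. TCF7, a Wnt transcription factor, was lowest at -0.91 ± 0.04 on 10 spots and -0.73 ± 0.40 (local value -0.34) on its second probe, then SOX9 at -0.32, and NKD1 (0.74 ± 0.40) and AXIN2 (0.52) were highest. Among 7 TGF-beta and BMP response genes, whose median of 0.24 crossed the all-gene median under 2 of the 10 settings, SMAD6 had 1.03 ± 0.25 and SMAD9 0.47 ± 0.40, while ID3 had -0.51 ± 0.14 and ID2 -0.47. Epithelial junction and keratin genes had a median of 0.04, which crossed under 3 of the 10 settings, with KRT23 at 0.95 ± 0.16 and 0.99 ± 0.40, KRT80 at 0.97 ± 0.25, and the plakophilin PKP2 at -1.04 ± 0.19, followed by DSG2 at -0.35 ± 0.25. CDH1, which encodes E-cadherin, had 0.42 ± 0.04 on 10 spots.

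Integrin and migration genes had a median of -0.10 over 14 genes. Of these, 3 were higher and 1 was lower by 1.5-fold or more, beside 7.52% and 6.54% of all genes. ITGAV, the alpha-V integrin, read 439, 212 and 284, with -0.72 ± 0.05 on 10 spots, and ITGA6 had -0.56. MMP7 (1.12 ± 0.40) and LAMA3 (0.99 ± 0.40), both dim, were highest, followed by the integrin ITGA3 at 0.90 ± 0.15 (local value 0.33). Genes of NF-kB and its chemokines had a median of -0.01, and BIRC3 and CXCL1 (-0.67 ± 0.32) were lowest, while NFKBIA at 0.08 ± 0.03 and NFKB2 at 0.07 ± 0.25 were highest. Targets of NRF2 had a median of 0.01, which crossed under 2 of the 10 settings, and HMOX1, heme oxygenase, was lowest there and split the siRNAs: it read 865, 434 and 975, with -0.67 ± 0.04 with siRNA #7 and 0.48 ± 0.04 with siRNA #8, on 10 spots. ME1 had -0.65 ± 0.25, and AKR1C3 (0.44 ± 0.40) and NQO1 (0.33 ± 0.25) were highest. The 7 metallothioneins ran from MT1X at -0.16 and MT2A at -0.14 to MT1B at 0.18 and MT1F at 0.25 with siRNA #7, and their median was 0.05, crossing under 3 of the 10 settings, against -0.65 with siRNA #8. MALAT1, a nuclear long non-coding RNA named in the study, shows the scatter of probes within 1 transcript, with 8 probes between -0.54 and 0.32.

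Some probes were well above background on 1 array only. There were 1762 such probes for the control array, and 357 for the siRNA #7 array. Counted from the higher of the dim signal itself and the lowest signal well above background on the other array, 125 and 190 of them differed by 2-fold or more. Few belonged to the gene lists. Besides CHAC1, these included BTC, an EGFR ligand, at least 2.70-fold higher with siRNA #7, and VIM, which encodes vimentin, at least 2.51-fold lower, each on 1 spot. The AGO4 probe described above was also among the probes higher by 2-fold or more with siRNA #7.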

How the data were processed

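Gene expression was measured on 1-colour Agilent arrays, 1 for each of 3 conditions, each with 1 RNA sample. Per the file headers, the deposited intensity values are the processed signals of Agilent Feature Extraction 11.5.1.1, which subtracts background and fits spatial trends. The deposited log2 values, a table of 21189 probes with a median of 0 on each array, are of unstated normalization and direction. Their differences between arrays followed those of the scanner intensities with a slope of 1.00 and a shift of 0.33 (Pearson's r 1.00 across probes, which are not independent), so they served as an alternative.

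Control spots, outlier spots and probes that were not well above background on both arrays of the comparison were left out (at least 50% of the spots of a probe had to qualify on each). The log2 intensity was set relative to the 75th percentile of each array over gene probes, with the mean taken over spots of the same probe. A gene has the mean of its kept probes. The error of a ratio combines the spot standard deviations of 10-spot probes of like brightness, in 6 signal ranges, for a 1-spot probe, and is the standard error over its own spots for a 10-spot probe. It covers spotting and scanning on these arrays only, and their number limits the precision. The surrounding spots of a spot are those within 3 rows and 3 columns.

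Probe names came from accessions matched to RefSeq genes of GRCh38.p14, which named 30004 of 50599 gene probes and 15815 of those kept. No coordinates are given, since the array was designed on another build. Mature miRNA sequences are those of RefSeq. Members and gene lists were chosen with earlier results of these data known. Genes were named by rule: the 8 highest and 8 lowest genes with 2 or more kept probes moving together, the 5 highest and 5 lowest 10-spot probes, list members with several probes or a 10-spot probe past 1.5-fold, the 2 highest and 2 lowest members of each list, and genes named by the study. Others were named after their values were seen. Alternatives were quantile normalization, scaling to the median, to detected probes or to the E1A spike-in probes, the deposited log2 values, normexp background correction with an offset of 50 on median signals, removal of the local median, other filters on dim probes and other fold thresholds. Python 3.11.15, numpy 2.4.6, pandas 2.3.3, matplotlib 3.10.9, R 4.3.3 and limma 3.58.1 were used. The calculation of ratios and of the median of the surrounding spots was tested on simulated data. Results for some genes are not reported here.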

Additional observations from a re-analysis of the deposited data

How the results depend on the processing

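The named ratios, 16 of genes with several probes and 10 of 10-spot probes, kept their direction under every alternative in which they had a value. They were picked for their large size in this same comparison. The largest rescaling, on the E1A probes, lowered all ratios by 0.29, so rescaling could not have turned their direction. All 26 were past 1.5-fold at first, 16 after normexp correction and 15 among the kept probes at or above the median control intensity. That filter removes the dimmer probes, and the rest of the 26 had no value under it. Counts moved more. Probes past 2-fold were 421 higher and 342 lower at first, then 219 and 860 with scaling on the E1A probes, 106 and 141 after normexp, 3362 and 1897 without the filter on dim probes, and 111 and 167 among the brighter probes. At a threshold of 1.5-fold they were 1565 and 1334. Genes with every probe past 1.5-fold were 48 higher and 42 lower, then 17 and 232 with E1A scaling, 4 and 19 after normexp, 186 and 108 without the filter, 7 and 15 among the brighter probes, and 12 and 7 at 2-fold, while scaling on the median of each array gave 64 lower. After normexp 4 of the 48 and 9 of the 42 genes were retained, and with the local median removed 34 and 36. The offset of 50 used in normexp is close to the 75th percentile intensity of 52.8 and by construction shrinks the ratios of dim probes. Probes printed on 10 spots past 1.5-fold were 21 higher and 26 lower, then 5 and 95 with E1A scaling, 59 higher without the filter, 2 higher after normexp, 4 and 15 among the brighter probes, and 4 and 3 at 2-fold. Of 29 list medians, 17 lay above the all-gene median, 11 after normexp and 8 without the filter, where the all-gene median was 0.17 instead of 0.02 and the median of all probes was raised by 0.27. The cause of the other shifts was not tested.

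No paired analysis was possible because the conditions were measured on 1 array apiece. For the same reason no array was left out, and no value here shows how far another culture treated with siRNA #7 would differ. Fewer probes were well above background on the siRNA #7 array, which limits what can be said of low transcripts.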
